A study of Mus musculus with 12 samples.

Results

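Transcript isoform usage was measured in RAW264.7 cells, a mouse macrophage line, that had received vesicles loaded with any of 3 miRNA mimics, and was compared with cells that had received control vesicles. The usage of a transcript is its share of the TPM (abundance per transcript, corrected for length and scaled to the same total in every library) of its gene. Members were all transcripts with a mean TPM of at least 1 in genes with 2 or more such transcripts, which gave 34659 transcripts of 8206 genes out of 118783 transcripts listed. Every library was polyA RNA of RAW264.7 cells lysed 48 h after the addition of extracellular vesicles (EVs) at 3 µg of protein per ml. The EVs came from MS-1, a mouse endothelial line, so cells of all groups had received endothelial vesicles, and no library without EVs was compared. The EVs had been electroporated with a control mimic (ctrl-EVs, named cel-miR-67 in the study's methods) or with a mimic, which gave miR-142-5p-EVs, vesicles with miR-183-5p (miR-183-5p-EVs) and those with miR-222-3p (miR-222-3p-EVs). Each of the 4 groups held 3 libraries, numbered 1 to 3 in the titles, and what a number stands for is not stated. The 9 mimic libraries were compared with the 3 ctrl-EV libraries, with the number as a block.

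Most mammalian genes give rise to several transcripts through alternative promoters, splicing and polyadenylation sites. Some of the annotated transcripts keep an intron that the others remove; such transcripts are often held in the nucleus or degraded, and they carry the biotype retained intron. Transcripts of the biotype nonsense-mediated decay hold a premature stop codon, and processed transcripts lack an open reading frame. A miRNA pairs through its seed, bases 2 to 8, mainly with sites in the 3′ UTR, so an isoform whose 3′ UTR lacks the site is not bound there.

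The mature RefSeq sequences of the 3 miRNAs are shown because the seed, in capitals, sets the sites sought in the isoforms (GRCm38.p6, 5′ to 3′). The miR-222-3p mimic listed in the study's supplement is shorter at its 3′ end and has the same seed. The 3 seeds differ from each other.
mmu-miR-142a-5p (chr11:87756867-87756887, plus strand): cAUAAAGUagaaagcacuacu
mmu-miR-183-5p (chr6:30169711-30169732, minus strand): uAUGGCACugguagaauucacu
mmu-miR-222-3p (chrX:19146901-19146923, minus strand): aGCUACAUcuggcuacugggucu
The 7-nt DNA sites complementary to these seeds read ACTTTAT for miR-142-5p, GTGCCAT for miR-183-5p and ATGTAGC for miR-222-3p.

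The libraries held 16294611 to 22974853 estimated counts, and the tested transcripts held 69.9% to 72.5% of a library's TPM. All 9 macrophage markers examined had a mean TPM of at least 1, with a summed level of 713 to 1041 TPM in ctrl-EVs and 688 to 1057 TPM in the mimic libraries. Of 10 endothelial markers 3 reached 1 TPM and 1 was at 0 in every library, with a summed level of 16.7 to 30.5 TPM in ctrl-EVs and 15 to 34.1 TPM in the mimic libraries, most of it from Egfl7 (18.4 TPM). The number in the title went with more differences than the mimics did: 11428 transcripts (33% of those tested) differed in usage between the 3 numbers (limma, adjusted p under 0.05). Libraries are the replicates here, and the study's methods state in general that experiments were repeated, without saying whether these libraries came from separate cultures. The p-values therefore measure only the spread between these libraries, which may be technical.

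To find transcripts whose usage moved with the mimics, the log2 odds of each share were compared in limma. No transcript differed at an adjusted p under 0.05 (0 of 34659, 0% called; lowest limma adjusted p 0.173), so 0 genes had a called transcript, while 3621 transcripts in 2507 genes (10.4%) had an unadjusted p under 0.05, 2285 (6.59%) with a higher and 1336 (3.85%) with a lower share. On the count scale edgeR's diffSpliceDGE with the same block called 50 transcripts in 49 genes, of which 34 were listed at 0 in at least 1 library. Limma without ctrl-EV library 2 called 33, of which 23 were listed at 0 in at least 1 library. The median size of the difference over all tested transcripts was 1.59 percentage points, and the median standard error of the log2 odds difference was 0.34 against a median size of 0.30. In 183 transcripts (0.528%) the shares of the 9 mimic libraries did not overlap those of the 3 ctrl-EV libraries (105 higher, 78 lower). Set against ctrl-EVs number by number, 1240 transcripts (3.58%) were higher in 9 of 9 mimic libraries and 790 (2.28%) lower in 9 of 9. Here and below such counts use only 3 ctrl-EV libraries, each set against 3 mimic libraries, so they are not 9 independent comparisons.

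Each mimic group on its own also had 0 called transcripts (limma with 4 groups, adjusted p under 0.05, 0% called). At an unadjusted p under 0.05 the miR-142-5p mimic had 2268 transcripts (6.54%), the miR-183-5p mimic 2465 (7.11%) and the miR-222-3p mimic 2168 (6.26%), with lowest limma adjusted p values of 0.638, 0.700 and 0.776. The 3 comparisons share the ctrl-EV libraries.

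The mimic and ctrl-EV libraries differed in the kind of transcript they held. Retained-intron transcripts made up 5.69%, 7.57% and 5.48% of all TPM in ctrl-EV libraries 1, 2 and 3. The miR-142-5p mimic gave 6.26%, 8.09% and 6.13%, the miR-183-5p mimic gave 6.28%, 8.35% and 6.17%, and the miR-222-3p mimic gave 5.98%, 8.53% and 6.19%. In every number, all 3 mimic libraries were above the ctrl-EV library (9 of 9), while across numbers the groups overlapped, since number 2 was the highest in every group. The mean was 6.89% ± 1.09 (SD, n = 9) against 6.25% ± 1.15 (SD, n = 3), a difference of 0.638 percentage points. An exact two-sided permutation of the ctrl-EV label within numbers gave p = 0.0156, the smallest that its 64 assignments allow, and 0.0547 after adjustment over 7 biotypes, which misses 0.05.

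Protein-coding transcripts were the counterpart. Their share of TPM was 78.0%, 74.0% and 77.5% in ctrl-EV libraries 1, 2 and 3 and 72.8% to 77.5% in the mimic libraries, below the same-number ctrl-EV library in 9 of 9 (mean difference −0.753 percentage points; exact permutation p = 0.0156, adjusted 0.0547). Processed transcripts made up 5.11% ± 0.284 (SD, n = 3) of TPM in ctrl-EVs and 5.30% ± 0.257 (SD, n = 9) in the mimic libraries, above the ctrl-EV library in 8 of 9 (exact permutation p = 0.0312, adjusted 0.0729). Transcripts annotated to nonsense-mediated decay did not follow: they held 2.77% ± 0.0237 (SD, n = 3) and 2.78% ± 0.0891 (SD, n = 9), higher in 6 of 9 (exact permutation p = 0.797). The 3 pseudogene biotypes had exact permutation p values of 0.125, 0.484 and 0.641.

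The retained-intron share differed between numbers by more than between treatments. The mean fragment length that the deposited effective lengths imply was 198.01 to 201.78 nt in ctrl-EVs and 198.86 to 211.27 nt in the mimic libraries, above the same-number ctrl-EV library in 8 of 9, and the total of estimated counts was higher in 7 of 9. Mitochondrial transcripts held 8.75% to 11.3% of TPM and were lower in 7 of 9. The part of these values in the retained-intron result was not tested.

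**Figure D1:**
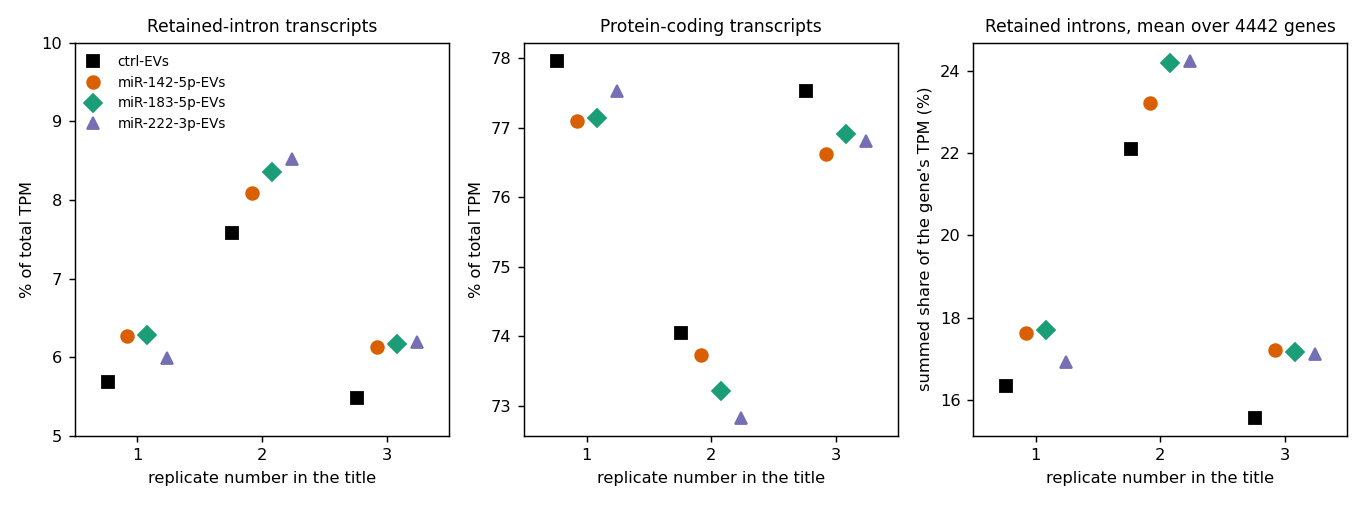
Share of total TPM held by retained-intron transcripts (left) and by protein-coding transcripts (middle), and mean over 4442 genes of the summed share of their retained-intron transcripts (right), in each of the 12 libraries by replicate number; the y axes do not start at 0. Within each number the black ctrl-EV square lies below the 3 mimic libraries for retained introns and above them for protein-coding transcripts, and number 2 stands apart in every group.

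The same held within genes, where the level of the gene cancels. Among 8858 tested retained-intron transcripts, 6061 (68.4%) had a higher share in the mimic libraries, with a median log2 odds difference of 0.19, against 52.9% and a median of 0.03 over all tested transcripts. At an unadjusted p under 0.05 (10.4% of all transcripts) 994 retained-intron transcripts were higher and 59 lower. In 9 of 9 libraries 621 (7.01%) were above and 55 (0.621%) below the same-number ctrl-EV library, against 3.58% and 2.28% of all transcripts. Separation across numbers was rare: the groups did not overlap in 33 higher and 9 lower of the 8858, against 105 and 78 of all 34659. The 18897 protein-coding transcripts leaned the other way, with 44.3% higher, a median of −0.06, and 824 higher and 1150 lower at an unadjusted p under 0.05. Processed transcripts (4379) had a median of 0.11 with 325 higher and 55 lower, and the 2476 transcripts annotated to nonsense-mediated decay a median of 0.03 with 139 higher and 71 lower. For retained introns the median was 0.19 for the miR-142-5p mimic, 0.22 for the miR-183-5p mimic and 0.19 for the miR-222-3p mimic, each against the shared ctrl-EV libraries. Transcripts of 1 gene share their reads, so these counts are descriptions and carry no test.

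**Figure D2:**
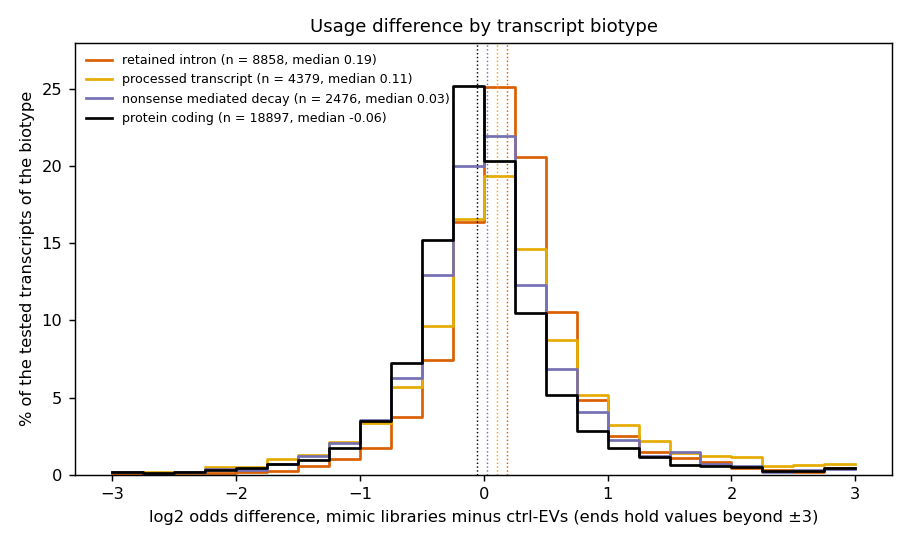
Distribution of the log2 odds difference in usage (mimic libraries minus ctrl-EVs, x axis, bins of 0.25) as a percentage of the tested transcripts of each biotype (y axis); dotted lines mark the medians. The retained-intron curve is shifted to the right, with a median of 0.19, and the protein-coding curve lies slightly to the left, with a median of −0.06.

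Summed by gene, the share of tested retained-intron transcripts was higher in the mimic libraries in 3285 of 4442 genes (74.0%), by a median of 1.20 percentage points. It was above the same-number ctrl-EV library in 9 of 9 for 380 genes and below in 9 of 9 for 24. The groups did not overlap in 16 genes with a higher and 5 with a lower sum. The proportion of genes with a higher sum was 63.1% of 236 genes under 10 TPM, 70.8% of 2251 genes of 10 to 50 TPM and 78.9% of 1955 genes of at least 50 TPM. The sum averaged over these genes was 16.3%, 22.1% and 15.6% in ctrl-EV libraries 1, 2 and 3, while the miR-142-5p mimic gave 17.6%, 23.2% and 17.2%, the miR-183-5p mimic 17.7%, 24.2% and 17.2%, and the miR-222-3p mimic 16.9%, 24.3% and 17.1%. All 9 mimic libraries were again above the ctrl-EV library of their number, by 1.49 percentage points on average (exact permutation p = 0.0156); this measure was added after the data were seen.

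The exon-intron borders that such transcripts leave unspliced are shown for 5 retained-intron transcripts described below, 15 exon bases in lower case followed by 15 intron bases in capitals (GENCODE vM21 transcripts, GRCm38; 5′ to 3′ on the strand of the gene).
Psmb8-206 (chr17:34200256-34200285, plus strand): ggctgggacaagaagGTGGGTGGCCTATGT
Med10-203 (chr13:69810038-69810067, plus strand): gctgagccagaagctGTGAGTGACGGCCCG
Srsf3-204 (chr17:29038610-29038639, plus strand): tccacctcggcgcagGTACTTGAGAGAGCA
Smad5-206 (chr13:56733057-56733086, plus strand): ggcatattggaaaagGTAATCTTGTCGTTT
Sel1l-209 (chr12:91833040-91833069, minus strand): ggggcttctgcgaaaGTGCGTATTGTTCAA
Each border lies between the start and stop codons of the gene's leading protein-coding transcript, and the intron side begins with GT, the usual 5′ splice site. In Psmb8-206, Med10-203 and Srsf3-204 the annotated exon spans the whole intron at this border, of 440, 1554 and 2150 bases. Med10-203 and Srsf3-204 each keep 2 whole introns, and the border of 1 is shown. In Smad5-206 and Sel1l-209 the annotated exon ends inside the intron.

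Retained-intron transcripts with the smallest p values were chosen after their values were seen. Stom-202 (890 nt, chr2:35315341-35320505) belongs to stomatin, a membrane protein. Its share of Stom TPM was 3.6%, 1.79% and 1.08% in ctrl-EV libraries 1, 2 and 3, while the miR-142-5p mimic gave 10.3%, 11% and 10.9%, the miR-183-5p mimic gave 10.1%, 8.55% and 13.8% and the miR-222-3p mimic gave 4.74%, 7.64% and 9.59%. All 9 mimic libraries were above the 3 ctrl-EV libraries (log2 odds difference 2.29 ± 0.39 SE; limma adjusted p 0.173). Smad5 encodes a transcription factor of BMP signalling. The share of Smad5-206 (1398 nt) was 5.57%, 3.67% and 2.23% in ctrl-EV libraries 1, 2 and 3, while the miR-142-5p mimic gave 16.3%, 10.1% and 6.34%, the miR-183-5p mimic gave 12.8%, 13.8% and 9.93% and the miR-222-3p mimic gave 10%, 10.3% and 6.98%, again without overlap (log2 odds difference 1.5 ± 0.25 SE; limma adjusted p 0.173). Psmb8 encodes a catalytic subunit of the immunoproteasome. Psmb8-206 held 1.5e-05%, 1.88% and 0.401% of Psmb8 TPM in ctrl-EV libraries 1, 2 and 3 and 1.77% to 5.95% with a median of 2.95% in the mimic libraries. The groups overlapped (log2 odds difference 2.78 ± 0.46 SE). With ctrl-EV library 1 near 0, the size of this difference depends in part on the pseudocount. It was called by edgeR's diffSpliceDGE (adjusted p 0.0224) and by limma without ctrl-EV library 2 (adjusted p 0.0424). The library left out had the highest ctrl-EV share of Psmb8-206 (1.88%). Med10-203, of a Mediator subunit, held 1.99%, 7.52% and 1.36% in ctrl-EV libraries 1, 2 and 3 and 2.18% to 14.1% with a median of 3.55% in the mimic libraries, and number 2 was high in each group (log2 odds difference 0.77 ± 0.14 SE). Sel1l-209, of an adaptor of ER-associated degradation, held 0.171%, 0.687% and 0.211% in ctrl-EVs and 0.686% to 2.1% with a median of 1.25% in the mimic libraries (log2 odds difference 1.64 ± 0.27 SE).

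In the same way Zc3h7a-213, of a zinc-finger RNA-binding protein, held 1.66%, 2.46% and 0.678% in ctrl-EVs and 2.42% to 5.58% with a median of 4.02% in the mimic libraries. Gpi1-203, of the glycolytic enzyme glucose-6-phosphate isomerase, held 1.57%, 7.2% and 1.13% in ctrl-EVs and 1.56% to 10.8% with a median of 2.67% in the mimic libraries, and Usp16-203, of a histone H2A deubiquitinase, 0.835%, 2.48% and 0.461% in ctrl-EVs and 1.0% to 17.8% with a median of 2.38% in the mimic libraries. Each of these was above the same-number ctrl-EV library in 9 of 9. Ralgapa2-207, of a subunit of the Ral GTPase-activating complex, held 9.17%, 5.39% and 0% in ctrl-EVs and 3.69% to 26.5% with a median of 19.4% in the mimic libraries. Camk2d-207 and Hspa8-208, of a calcium-dependent kinase and of a constitutive heat shock protein, were higher in 9 of 9 too. Camk2d-207 held 0%, 2.29% and 0% in ctrl-EVs and 0.656% to 7.07% with a median of 1.41% in the mimic libraries, and limma called it without ctrl-EV library 2 (adjusted p 0.022). That fit left out the only ctrl-EV library with a share above 0, so its ctrl-EV side rested on the pseudocount. Hspa8-208 held 0.211%, 0.898% and 0.201% in ctrl-EVs and 0.267% to 1.94% with a median of 0.385% in the mimic libraries. In both the groups overlapped, with ctrl-EV library 2 the highest of ctrl-EVs; Hspa8 has near-identical copies in the genome, so its values are uncertain. A single retained-intron transcript of these 12 went the other way: Lrp1-208, of an endocytic receptor. Lrp1-208 held 6.43%, 1.79% and 27.1% in ctrl-EV libraries 1, 2 and 3 and 0% to 1.18% in the mimic libraries, where 7 of 9 listed it at 0. It was called by edgeR's diffSpliceDGE (adjusted p 0.00933). Lrp1-208, Ralgapa2-207, Sel1l-209, Usp16-203 and Zc3h7a-213 had means of 10.0, 12.9, 19.4, 23.2 and 28.8 estimated counts, so their shares rest on few reads.

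**Figure D3:**
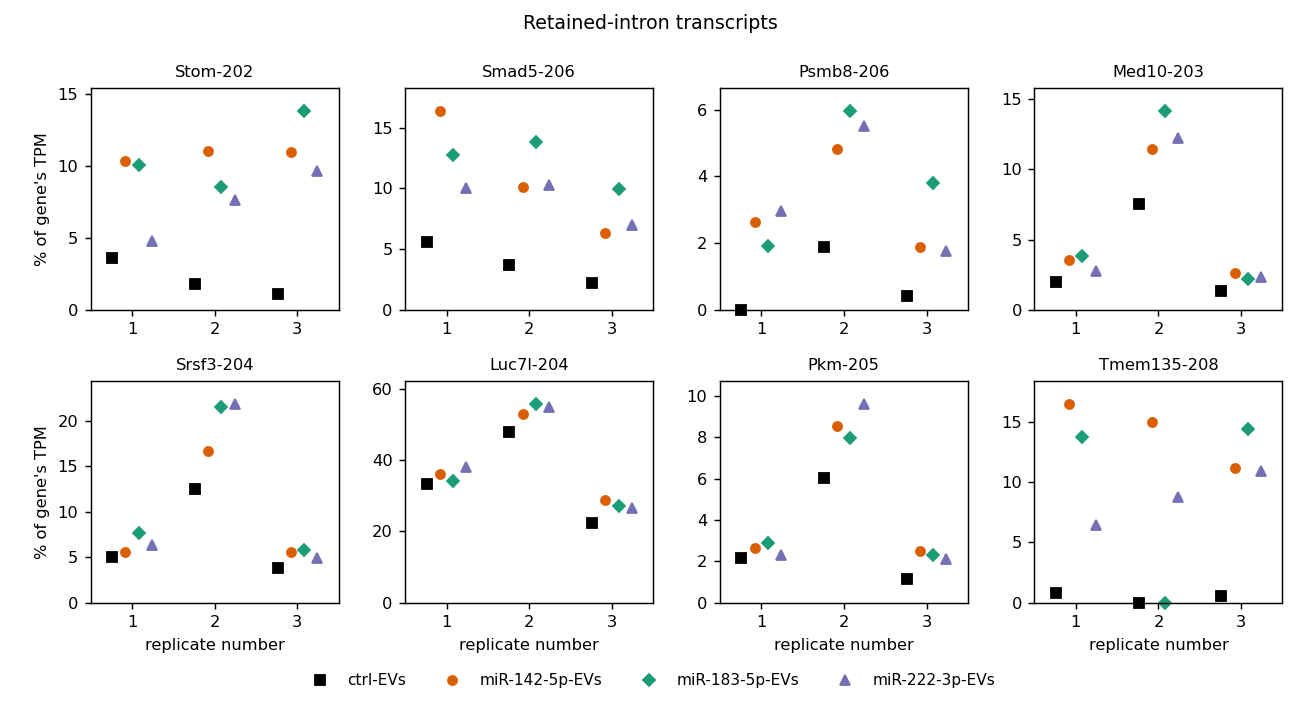
Share of the gene's TPM (y axis, from 0) held by 8 retained-intron transcripts in each library, by replicate number (x axis). In Stom-202 and Smad5-206 the mimic libraries do not overlap ctrl-EVs (black squares), while in Srsf3-204, Pkm-205 and Med10-203 number 2 is the highest in every group and the mimic libraries exceed the ctrl-EV library of their own number.

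Across all biotypes, the 12 genes with the smallest p among transcripts holding 5% to 95% of a gene of at least 5 TPM each had a limma adjusted p of 0.173. Of their transcripts, 5 had shares that did not overlap between the groups, and each of the 12 lay on 1 side of ctrl-EVs of the same number in 9 of 9 libraries. Since p from the same fit chose these transcripts, both counts are descriptions. Tmem135-201 (3700 nt, chr7:89139714-89338787) is the main protein-coding transcript of a membrane protein of mitochondria and peroxisomes. It held 90.6%, 95.2% and 93.4% in ctrl-EV libraries 1, 2 and 3, while the miR-142-5p mimic gave 74.1%, 67.3% and 68.9%, the miR-183-5p mimic gave 70.5%, 89.5% and 68.4% and the miR-222-3p mimic gave 73.4%, 84.8% and 71.8%. The mimic libraries lay below all ctrl-EV libraries (log2 odds difference −2.13 ± 0.35 SE). The mean level of Tmem135-201 itself was 24.6 TPM in ctrl-EVs and 24.8 TPM in the mimic libraries. The retained-intron transcript Tmem135-208 (696 nt) held 0.771%, 0% and 0.566% in ctrl-EV libraries 1, 2 and 3, while the miR-142-5p mimic gave 16.4%, 15% and 11.1%, the miR-183-5p mimic gave 13.7%, 0% and 14.4% and the miR-222-3p mimic gave 6.41%, 8.74% and 10.9%, higher in 8 of 9 and listed at 0 in miR-183-5p-EV library 2 as in ctrl-EV library 2 (log2 odds difference 3.55 ± 0.95 SE; limma adjusted p 0.311). The processed transcript Tmem135-203 was also present, with 7.56%, 0% and 5.48% in ctrl-EVs and 0% to 19.7% with a median of 10.6% in the mimic libraries (limma adjusted p 0.654). Tmem135-208 and Tmem135-203 had means of 20.9 and 26.3 estimated counts, so their shares rest on few reads.

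Transcripts with a higher share included Zfp687-204 (862 nt), a short protein-coding transcript of a zinc-finger gene, with 2.0%, 2.96% and 5.13% in ctrl-EV libraries 1, 2 and 3 and 9.6% to 16.9% with a median of 12.7% in the mimic libraries (log2 odds difference 2.08 ± 0.28 SE). E2f3-203 (4597 nt) belongs to a transcription factor of the cell cycle and held 31.8%, 53.9% and 35.4% in ctrl-EV libraries 1, 2 and 3, while the miR-142-5p mimic gave 44.1%, 74.9% and 52%, the miR-183-5p mimic gave 52%, 70% and 49.8% and the miR-222-3p mimic gave 49.5%, 78% and 52.8% (log2 odds difference 1.08 ± 0.15 SE). Its groups overlapped across numbers, with number 2 high throughout. Map4k5-201, the 31-exon transcript of a protein kinase, held 1.67%, 3.33% and 3.76% in ctrl-EVs and 4.12% to 14.9% with a median of 9.92% in the mimic libraries (log2 odds difference 1.43 ± 0.21 SE). Adal-201, of an adenosine deaminase-like enzyme, held 17%, 5.25% and 14.2% in ctrl-EVs and 13.9% to 46% with a median of 27.1% in the mimic libraries (log2 odds difference 1.56 ± 0.24 SE). Vps8-203, the 47-exon transcript of a subunit of the endosomal tethering complex CORVET, held 3.93%, 0% and 1.6% in ctrl-EVs and 5.96% to 16.4% with a median of 10.1% in the mimic libraries (log2 odds difference 2.4 ± 0.37 SE). Trak1-210 (510 nt), a processed transcript of an adaptor of mitochondrial transport, held 0%, 0% and 2.05% in ctrl-EVs and 4.72% to 12.9% with a median of 7.52% in the mimic libraries. Zfp687-204, Map4k5-201, Vps8-203 and Trak1-210 did not overlap between the groups. Each of the 4 averaged under 3 TPM. Trak1-210 and Zfp687-204 had means of 6.1 and 26.9 estimated counts, so their shares rest on few reads.

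The 6 transcripts with a lower share were all protein-coding. Cd82-201, of a tetraspanin, held 88.8%, 80.7% and 87.9% of Cd82 TPM in ctrl-EV libraries 1, 2 and 3, and 55.2% to 83.6% with a median of 78% in the mimic libraries (log2 odds difference −1.12 ± 0.18 SE). The groups overlapped in number 2 of ctrl-EVs. Abraxas2-201, of the scaffold subunit of a deubiquitinating complex, held 88.7%, 75.7% and 87.5% in ctrl-EVs and 66.1% to 79.8% with a median of 74.4% in the mimic libraries (log2 odds difference −0.93 ± 0.15 SE). Bcl2l11 encodes Bim, a protein that starts apoptosis. Bcl2l11-205 (5036 nt, with a 3′ UTR of 4218 nt) held 65.5%, 61% and 75.6% in ctrl-EVs and 49% to 67% with a median of 57.2% in the mimic libraries (log2 odds difference −0.62 ± 0.1 SE). Zfand5-201, of a ubiquitin-binding protein, held 61.1%, 25.6% and 60.6% in ctrl-EVs and 17.2% to 54.2% with a median of 51.8% in the mimic libraries, with the smallest standard error of the 12 (log2 odds difference −0.52 ± 0.08 SE), and Sept8-201, of a septin, 44.2%, 14.2% and 58.5% in ctrl-EVs and 4.25% to 39.5% with a median of 31.3% in the mimic libraries (log2 odds difference −1.25 ± 0.2 SE). In both, number 2 was low in every group. The mean TPM of Cd82-201, Abraxas2-201, Bcl2l11-205, Zfand5-201 and Sept8-201 was also lower in the mimic libraries, unlike that of Tmem135-201.

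**Figure D4:**
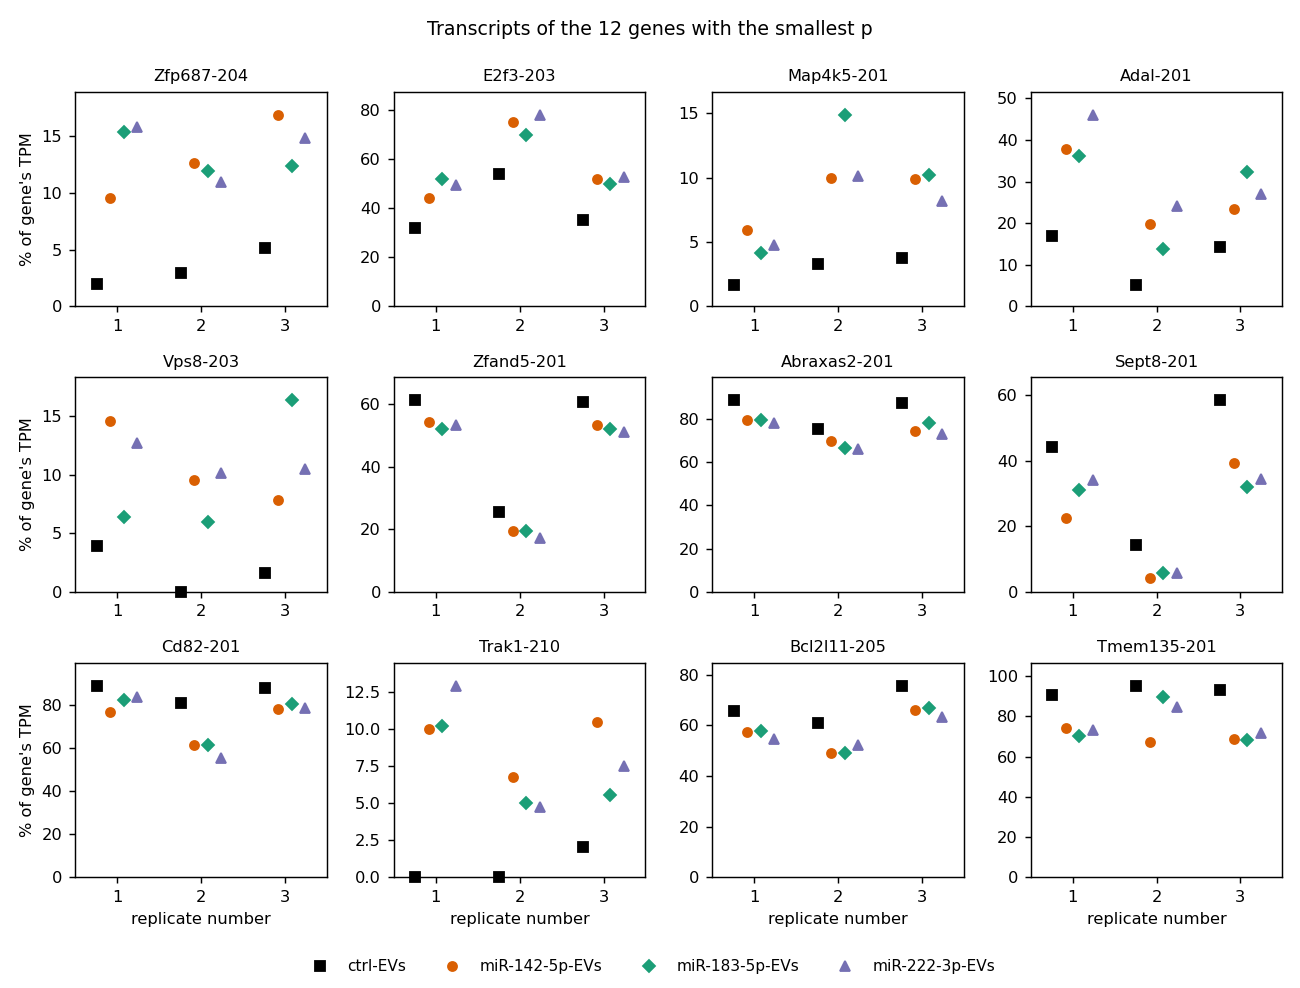
Share of the gene's TPM (y axis, from 0) for the transcript standing for each of the 12 genes with the smallest p, in each library by replicate number (x axis). Zfp687-204, Map4k5-201, Vps8-203, Trak1-210 and Tmem135-201 have no overlap between the mimic libraries (coloured) and ctrl-EVs (black squares), and the other 7 separate only within a number.

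Isoforms of genes named for their total level were examined next; these 14 genes were chosen with gene-level results of the same libraries known, so they are not independent evidence. Chpf and Il1rl1 had no tested transcript. In the other 12 genes 9 of 45 transcripts (20%, against 10.4% of all transcripts) had an unadjusted p under 0.05, 4 higher and 5 lower, and 0 were called, with a median log2 odds difference of 0.08 against 0.03 over all transcripts. Besides Tmem135 they were in Atm, Dnmt3a, Gm14295, Mrps10, Zfp950 and Camta1. Atm encodes a kinase of the DNA damage response. Its leading transcript Atm-201 held 60.4%, 57.9% and 58.5% in ctrl-EVs and 33.7% to 62.3% with a median of 50.8% in the mimic libraries, lower in 8 of 9 (log2 odds difference −0.63 ± 0.24 SE). The retained-intron transcript Atm-204 held 5.77%, 0% and 0% in ctrl-EVs and 3.16% to 10.9% with a median of 8.47% in the mimic libraries, higher in 8 of 9 (log2 odds difference 2.62 ± 0.64 SE). Atm-204 had a mean of 27.7 estimated counts, so its share rests on few reads. Dnmt3a-218 (8737 nt), of a de novo DNA methyltransferase, held 34.4%, 29.2% and 36.6% in ctrl-EVs and 23.3% to 34.3% with a median of 26.2% in the mimic libraries, lower than the same number in 9 of 9 (log2 odds difference −0.4 ± 0.09 SE; limma adjusted p 0.306). The other 5 tested transcripts of Dnmt3a had unadjusted p values of 0.119 to 0.893 by limma. A lower share was not always a lower level: mean TPM was higher in the mimic libraries for Atm-201 (14.5 against 11.9) and Dnmt3a-218 (19.4 against 17.1). It was also higher for Gm14295-202 (2.6 against 2.38), and lower for Zfp950-207 (2.18 against 2.25).

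Mrps10-206, a retained-intron transcript of a mitochondrial ribosomal protein, held 5.32%, 7.59% and 4.41% in ctrl-EVs and 5.88% to 12.2% with a median of 7.4% in the mimic libraries, higher in 9 of 9 (log2 odds difference 0.54 ± 0.19 SE). Camta1-212, a processed transcript of a calmodulin-binding transcription activator, held 3.54%, 5.65% and 1.14% in ctrl-EVs and 4.1% to 13.6% with a median of 6.82% in the mimic libraries, higher in 9 of 9. Gm14295-202 (59.8%, 55.9% and 64.3% in ctrl-EVs, 6.86% to 70.6% with a median of 37.9% in the mimic libraries) and Zfp950-207 (29.3%, 18.4% and 25.3% in ctrl-EVs, 3.38% to 26.1% with a median of 19.8% in the mimic libraries) were each lower in 8 of 9. Both come from a large zinc-finger family with near-identical members, so their shares are uncertain. For Cbx5, a heterochromatin protein, Cbx5-202 held 94%, 100% and 97.9% in ctrl-EVs and 87.9% to 100% with a median of 96.4% in the mimic libraries (limma unadjusted p 0.452). For Cybb, the catalytic subunit of the phagocyte NADPH oxidase, Cybb-201 held 68%, 95.6% and 100% in ctrl-EVs and 68.3% to 95.9% with a median of 83.4% in the mimic libraries (0.234). Slc43a2-211, the leading transcript of an amino acid transporter, held 58.6%, 39.4% and 55.7% in ctrl-EVs. In the mimic libraries it held 26.6% to 62.1% with a median of 36.3%, lower in 7 of 9 (limma unadjusted p 0.0727). Dnajc12-202, that of a co-chaperone, held 75.6%, 66.4% and 75.6% in ctrl-EVs. Its mimic libraries held 56.5% to 71.4% with a median of 66.7%, lower in 8 of 9 (limma unadjusted p 0.0883). Clptm1-209, a retained-intron transcript that leads in a membrane protein gene, held 48.7%, 38.5% and 49.1% in ctrl-EVs. Its mimic libraries held 31% to 52.4% with a median of 43.7%, lower in 6 of 9 (limma unadjusted p 0.384).

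Of the genes on which the study centred its macrophage assays, Tgfb1 had tested isoforms, and Arg1, Nos2 and Il1b did not. Tgfb1-201, the full-length transcript of the cytokine TGF-β1, held 80.8%, 69.5% and 70.4% in ctrl-EVs and 57.5% to 84.3% with a median of 75.8% in the mimic libraries (limma unadjusted p 0.584).

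Splicing regulators, the proteins that select splice sites, often produce unproductive isoforms of their own transcripts. All 44 listed genes had tested isoforms. Of their 416 transcripts 53 (12.7%, against 10.4% of all transcripts) had an unadjusted p under 0.05, 36 higher and 17 lower, 0 were called, and the median log2 odds difference was 0.04. Of their 142 retained-intron transcripts 101 had a higher share, near the 68.4% of all retained-intron transcripts, with 26 higher and 0 lower at an unadjusted p under 0.05 (11.2% and 0.666% of all retained-intron transcripts) and a median of 0.15 against 0.19. The smallest p was that of Celf1-202 (7851 nt), of an RNA-binding protein, which held 2.58%, 9.78% and 2.73% in ctrl-EVs and 6.01% to 17.2% with a median of 10.1% in the mimic libraries (log2 odds difference 1.31 ± 0.29 SE; limma adjusted p 0.306), while Celf1-203 held 27.5%, 23.7% and 44.9% in ctrl-EVs and 4.95% to 31.3% with a median of 18.2% in the mimic libraries.

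SR proteins promote exon inclusion. Srsf3-204, with 2 whole introns kept in its annotated exons, held 5.03%, 12.4% and 3.79% in ctrl-EV libraries 1, 2 and 3, while the miR-142-5p mimic gave 5.61%, 16.7% and 5.55%, the miR-183-5p mimic gave 7.69%, 21.5% and 5.75% and the miR-222-3p mimic gave 6.35%, 21.8% and 4.94%, above the same number in 9 of 9 (log2 odds difference 0.57 ± 0.15 SE, limma adjusted p 0.307). Srsf3-201, the isoform annotated to nonsense-mediated decay, held 42.1%, 40.1% and 55.2% in ctrl-EVs and 12.9% to 59% with a median of 35% in the mimic libraries, and was below ctrl-EVs only in numbers 1 and 2 (6 of 9). Luc7l encodes a U1 snRNP-associated protein, and its leading transcript is a retained-intron one: Luc7l-204 held 33.3%, 47.9% and 22.2% in ctrl-EVs and 26.4% to 55.5% with a median of 36% in the mimic libraries, higher in 9 of 9 (log2 odds difference 0.32 ± 0.09 SE). The retained-intron transcripts Mbnl1-205 (2.83%, 5.16% and 1.55% in ctrl-EVs, 2.88% to 6.65% with a median of 4.07% in the mimic libraries) and Rbm39-211 (1.94%, 1.51% and 1.37% in ctrl-EVs, 1.96% to 2.94% with a median of 2.21% in the mimic libraries), of 2 regulators of exon choice, were higher in 9 of 9 too, and Rbm39-211 did not overlap. Differences in both directions lay in Ddx5, an RNA helicase: the protein-coding Ddx5-201 held 59.2%, 48% and 64.3% in ctrl-EVs and 37.1% to 61.8% with a median of 51.8% in the mimic libraries, lower in 9 of 9, and Ddx5-208, annotated to nonsense-mediated decay, 26.9%, 37.3% and 26.2% in ctrl-EVs and 27.1% to 48.1% with a median of 33.1% in the mimic libraries, higher in 9 of 9. Hnrnpl-202 and Hnrnpk-201, protein-coding transcripts of hnRNP proteins, were lower in 9 of 9 (36.6%, 23% and 44.6% in ctrl-EVs, 16.6% to 36.8% with a median of 34.3% in the mimic libraries, and 29.9%, 19.5% and 30.6% in ctrl-EVs, 16.2% to 29.9% with a median of 25.9% in the mimic libraries). None of these passed limma's adjusted test, and edgeR's diffSpliceDGE called Srsf3-201 (adjusted p 0.0294).

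**Figure D5:**
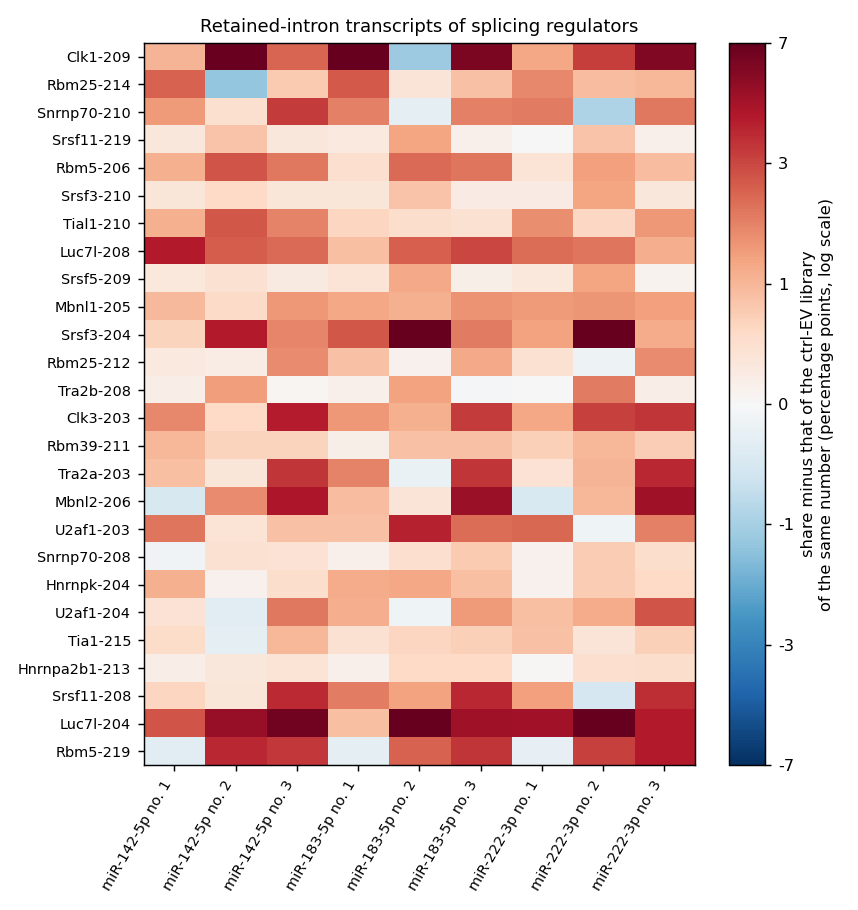
Difference in share from the same-number ctrl-EV library (colour, percentage points on a log scale that saturates at 7) for the 26 retained-intron transcripts of splicing regulators with an unadjusted p under 0.05 (rows), in the 9 mimic libraries (columns). Since p chose the rows, the red prevalence (215 of 234 fields above 0) is a description; 19 fields lie below 0.

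Factors that choose the poly(A) site gave 12 of 105 transcripts (11.4%, near the 10.4% of all) in 17 of 20 genes at an unadjusted p under 0.05, 11 higher and 1 lower, with a median of 0.10, and 22 of 31 retained-intron transcripts had a higher share, against 68.4% of all retained-intron transcripts. The lower transcript was Papola-202, of poly(A) polymerase, with 38.8%, 21.7% and 44.4% in ctrl-EVs and 13.9% to 38.9% with a median of 32.5% in the mimic libraries (log2 odds difference −0.42 ± 0.11 SE; limma adjusted p 0.307). Cpsf4-203, a retained-intron transcript of a subunit of the cleavage factor CPSF, held 6.14%, 32.3% and 4.73% in ctrl-EVs and 6.21% to 40.2% with a median of 10.1% in the mimic libraries, higher in 9 of 9, with number 2 far above the others in each group. Factors of nonsense-mediated decay gave 3 of 53 transcripts (5.66%, against 10.4% of all) in 12 of 16 genes, 1 higher and 2 lower, with a median of 0.01. The smallest p there was that of Rnps1-202, of an exon junction protein, with 38.6%, 23.8% and 43.7% in ctrl-EVs and 15.4% to 42.2% with a median of 29.5% in the mimic libraries by limma (adjusted p 0.317).

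The miRNA machinery gave 9 of 67 transcripts (13.4%, against 10.4% of all) in 11 of 18 genes, 8 higher and 1 lower (6.59% and 3.85% of all), with a median of 0.14. Cnot1 encodes the scaffold of the CCR4-NOT deadenylase, which miRNAs recruit. Its retained-intron transcript Cnot1-211 (479 nt) held 14.4%, 11.9% and 19.2% in ctrl-EV libraries 1, 2 and 3, while the miR-142-5p mimic gave 5.79%, 10% and 4.18%, the miR-183-5p mimic gave 6.06%, 9.94% and 3.89% and the miR-222-3p mimic gave 8.92%, 8.7% and 5.78%, without overlap and lower (log2 odds difference −1.28 ± 0.33 SE; limma adjusted p 0.307), while the protein-coding Cnot1-202 held 33.9%, 36.2% and 29.8% in ctrl-EVs and 33.7% to 42.1% with a median of 38.5% in the mimic libraries, higher in 9 of 9. Dicer1, which cuts miRNA precursors, had 2 retained-intron transcripts that were higher in 8 of 9: Dicer1-204 (1.59%, 4.14% and 3.5% in ctrl-EVs, 2.55% to 6.53% with a median of 4.44% in the mimic libraries) and Dicer1-202 (3.2%, 5.26% and 1.66% in ctrl-EVs, 2.94% to 7.92% with a median of 3.72% in the mimic libraries).

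Macrophage genes with known isoforms gave 32 of 201 transcripts (15.9%, against 10.4% of all) in 36 of 42 genes at an unadjusted p under 0.05, 24 higher and 8 lower, with 0 called and a median of 0.04. Of their 44 retained-intron transcripts 31 had a higher share, near the 68.4% of all retained-intron transcripts, 10 of them at an unadjusted p under 0.05 and 0 lower at that limit. Pkm, pyruvate kinase, held 6 of the 32; it has processed copies elsewhere in the genome, as hnRNP genes do, so its shares are uncertain. Its protein-coding Pkm-201 held 80.2%, 68.5% and 84.5% in ctrl-EV libraries 1, 2 and 3, while the miR-142-5p mimic gave 77.2%, 67.1% and 76.2%, the miR-183-5p mimic gave 76.5%, 67.2% and 78.1% and the miR-222-3p mimic gave 78.9%, 65.3% and 78.6%, lower in 9 of 9 (limma unadjusted p 0.00363). Pkm-205, a retained-intron transcript of 160 TPM and the smallest p of the list, held 2.18%, 6.04% and 1.13% in ctrl-EV libraries 1, 2 and 3, while the miR-142-5p mimic gave 2.62%, 8.56% and 2.49%, the miR-183-5p mimic gave 2.89%, 7.96% and 2.31% and the miR-222-3p mimic gave 2.29%, 9.58% and 2.11%, higher in 9 of 9 (log2 odds difference 0.62 ± 0.13 SE; limma adjusted p 0.306); edgeR's diffSpliceDGE called it, with an adjusted p of 0.00809. Syk-204, a retained-intron transcript of a kinase below Fc receptors, held 2.6%, 12.8% and 1.5% in ctrl-EVs and 2.45% to 19.4% with a median of 4.43% in the mimic libraries, and Ptprc-210, of the surface phosphatase CD45, 4.41%, 6.71% and 2.8% in ctrl-EVs and 4.27% to 10% with a median of 5.2% in the mimic libraries. Tropomyosin isoforms differed in direction: Tpm1-211 held 42.5%, 27% and 42% in ctrl-EVs and 20.1% to 40% with a median of 36.9% in the mimic libraries, lower in 9 of 9, and Tpm1-201 2.37%, 6.37% and 1.47% in ctrl-EVs and 2.39% to 9.78% with a median of 3.24% in the mimic libraries, higher in 9 of 9. Mef2c-230, of a transcription factor of myeloid and muscle cells, held 11.4%, 5.99% and 11.9% in ctrl-EVs and 2.97% to 10.1% with a median of 6.41% in the mimic libraries, lower in 9 of 9. The macrophage markers gave 0 of 18 transcripts at an unadjusted p under 0.05 (smallest 0.214, Cd68-203, by limma) and the endothelial markers 0 of 3 (Egfl7-209, 0.129, by limma).

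The leading transcript, the one with the largest mean share, differed between the mimic libraries and ctrl-EVs in 569 of 8206 genes (6.93%). In 6 of these genes (1.05%) the shares did not overlap, and 98 (17.2%) had an unadjusted p under 0.05, against 0.528% and 10.4% of all transcripts. Since the difference between the same groups chose these genes, higher percentages are built in and are descriptions only. Between number 2 and the other numbers the leading transcript differed in 1269 genes (15.5%). The largest difference was in Errfi1, a feedback inhibitor of EGF receptor signalling, which has 2 tested transcripts that start at different positions. Errfi1-202 held 71.1%, 35.9% and 94.4% in ctrl-EV libraries 1, 2 and 3, 93.6% in miR-183-5p-EV library 2 and 6.04% or less in the other 8 mimic libraries, and Errfi1-201 had the reverse pattern (log2 odds difference −6.03 ± 1.95 SE; limma adjusted p 0.365). The next were Mef2b-205, Gm15446-203, Cryab-205, Zfp69-201 and Prpf6-201. Prpf6 encodes a protein of the spliceosome. Prpf6-201 held 50.8%, 67.2% and 61.4% in ctrl-EVs and 7.58% to 68.3% with a median of 24.2% in the mimic libraries, opposite Prpf6-203, a transcript of nearly the same length (3048 and 3054 nt). Cryab-205, of a small heat shock protein, held 33.6%, 62.3% and 85.4% in ctrl-EVs and 0.00169% to 55.7% with a median of 27% in the mimic libraries, and Zfp69-201 74.7%, 80.7% and 46% in ctrl-EVs and 11.8% to 58.2% with a median of 33.4% in the mimic libraries, lower in 9 of 9. Gm15446-203 is a 192-nt transcript with a mean of 4.0 estimated counts, and Mef2b-205 had 26.2, so their shares rest on few reads.

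The TPM-weighted length of transcripts did not separate the groups. For protein-coding genes it was 1626, 1572 and 1584 nt in ctrl-EV libraries 1, 2 and 3 and 1552 to 1695 nt in the mimic libraries (exact permutation p = 0.156, adjusted 0.156 over 3 measures). The 3′ UTR of protein-coding transcripts had a weighted length of 547, 530 and 535 nt in ctrl-EVs and 519 to 591 nt in the mimic libraries (exact permutation p = 0.141, adjusted 0.156), and the weighted number of exons was 7.35, 7.06 and 7.25 against 6.98 to 7.68 (exact permutation p = 0.0781, adjusted 0.156). In number 3 all 3 mimic libraries were above ctrl-EVs, at 1694 to 1695 nt against 1584 nt and with 3′ UTRs of 585 to 591 nt against 535 nt. In number 2 all 3 had a shorter weighted transcript length than ctrl-EVs (1552 to 1567 nt against 1572 nt), and in number 1 they lay on both sides.

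Isoforms with and without a seed site of the delivered miRNA coexisted in 779 genes for miR-142-5p, 604 for miR-183-5p and 536 for miR-222-3p. The share of the isoforms with the 7-nt site differed from ctrl-EVs by a median of −0.641 percentage points with miR-142-5p-EVs (lower in 447 of 779 genes), −0.182 for the miR-183-5p mimic at its own sites (315 of 604) and −0.435 for the miR-222-3p mimic (307 of 536). The other mimics gave values of a like size at the same genes: isoforms with a miR-142-5p site differed by −0.534 for the miR-183-5p mimic and −0.488 for the miR-222-3p mimic. Those with a miR-183-5p site differed by −0.394 for the miR-142-5p mimic and −0.346 for the miR-222-3p mimic, further than with their own mimic. Those with a miR-222-3p site differed by −0.492 with miR-142-5p-EVs and −0.413 with miR-183-5p-EVs. With the stricter 8-nt site, the same letters followed by A, the medians for the delivered mimics were −0.340 over 257 genes for miR-142-5p, 0.343 over 104 genes for miR-183-5p, where the sign turned, and −0.864 over 189 genes for miR-222-3p. At those 189 genes the other mimics gave −0.855 and −0.900. Isoforms with a 7-nt site had longer 3′ UTRs (median 2062, 2351 and 2447 nt, against 468, 545 and 452 nt without), and the part of 3′ UTR length in these values was not tested. For the 7-nt site the spread of the 3 numbers' medians was 0.469, 0.854 and 0.843 percentage points (SD) for the 3 delivered mimics, larger than the median itself for miR-183-5p and miR-222-3p.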

How the data were processed

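RNA-Seq of 12 libraries of polyA RNA (TruSeq Stranded mRNA, paired reads) was used. The authors quantified reads with Salmon against Ensembl cDNA and ncRNA sequences, per the labels and the study's methods, and deposited for each library the TPM, the estimated counts and the effective length of every transcript. Of 118783 listed transcripts 116622 (98.2%) matched GENCODE vM21 (GRCm38); the unmatched ones, with 0.503% to 0.612% of TPM, were not used. The authors summed transcripts to genes and tested those; reads shared by isoforms were divided by Salmon's model, so a share carries an assignment error that the deposited values do not give. Libraries held 16294611 to 22974853 estimated counts of PCR reads without molecular identifiers.

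Transcripts of mean TPM of at least 1 in genes with 2 or more such transcripts were tested. The log2 of (TPM + 0.1) over (the rest of the gene's TPM + 0.1) was fitted with limma 3.58.1 in R 4.3.3, with a trend, robust moderation and the number in the title as a block; p-values were adjusted by the Benjamini-Hochberg method over all 34659 transcripts. A log2 odds difference of a share near 0 depends on the pseudocount of 0.1. The number was kept as a block because same-number libraries deviated together: the mean correlation of deviations from group means was 0.297 (0.136 to 0.527 over 18 pairs), against −0.144 over 36 pairs of other numbers. Library-level values were tested by exact two-sided permutation of the ctrl-EV label within numbers (64 assignments). Transcripts named were the smallest p of each of 12 genes (5% to 95% of a gene of at least 5 TPM), the smallest p of each gene list with the tested isoforms of 14 genes named for their level and of genes of the study's assays (1 of them is not reported here), and the 6 largest differences in a changed leading transcript; all others were chosen after their values were seen. The members and lists were chosen with earlier results of these data known. Alternatives covered the pseudocount, the TPM filter, the scale, edgeR 4.0.16 (diffSpliceDGE), the block and leaving out each library. Scripts were tested on simulated data in which 200 transcripts were raised 4-fold in the mimic libraries. The raised transcripts were drawn only from those above a limit on counts and below a limit on share. Every transcript had the same spread between libraries (dispersion 0.148), and no error of read assignment was simulated. There limma recovered 122 and called 6 in unchanged genes. With edgeR's diffSpliceDGE 76 were recovered and 24 were called in unchanged genes, so its calls were less certain in this setting. How far these counts carry over to transcripts with few reads or with reads shared between isoforms was not tested. The study's own fold changes were not used.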

Additional observations from a re-analysis of the deposited data

Results flagged for a closer look

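Of 36 transcript and library values examined for a library far from the rest of its group, 2 stood apart, and chance gives about 1 in 20 groups such a value. Errfi1-202 held 93.6% of Errfi1 TPM in miR-183-5p-EV library 2, while the other 8 mimic libraries lay between 0% and 6.04%. Mef2b-205 held 99.9721% of Mef2b TPM in miR-142-5p-EV library 2, while the other 8 lay between 0% and 39.7%. Both libraries carry number 2, and ctrl-EV library 2 held 35.9% for Errfi1-202 and 100% for Mef2b-205.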

How the results depend on the processing

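The count of 0 called transcripts in 0 genes became 1 transcript in 1 gene with a pseudocount of 0.01 TPM, 2 in 2 genes with no filter on TPM (75798 tested) and 50 in 49 genes with edgeR's diffSpliceDGE and the replicate block (36 higher and 14 lower, lowest adjusted p 1.74e-05; 7 of them retained-intron and 34 protein-coding transcripts). It stayed at 0 with the other scales, filters and models run, among them the fit with no replicate block, where 0 were called and 1228 had an unadjusted p under 0.05. Leaving out 1 library gave 0 to 33 called transcripts, in 0 to 33 genes: 33 without ctrl-EV library 2 (29 higher, 11 retained-intron, 23 listed at 0 in a library), 6 without ctrl-EV library 1, 6 without ctrl-EV library 3, 6 without miR-183-5p-EV library 2, and 1 without miR-142-5p-EV library 3 or without miR-183-5p-EV library 1. For each mimic alone the range was 0 to 1. Vps39-206, Npepl1-203 and Aspm-205 were among the 33: ctrl-EV libraries 1 and 3 listed each at 0%, and library 2 held 14.5%, 16.0% and 9.39%. Without library 2 their ctrl-EV side rested on the pseudocount, while 10 of the 33 were above 0 in every library. The cause of the differing counts was not tested.

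The retained-intron difference in percent of TPM ranged from 0.583 to 0.713 percentage points when 1 library was left out, that of protein-coding transcripts from −0.832 to −0.682 and that of processed transcripts from 0.0977 to 0.255; without miR-222-3p-EV library 1 the adjusted p of these 3 was 0.0486 (0.670, −0.800 and 0.198 percentage points). Without a ctrl-EV library the smallest possible exact p is 0.0625. Values that crossed 0 were those of nonsense-mediated decay (−0.0172 to 0.0532; −0.00957 without ctrl-EV library 3), processed pseudogenes (−0.178 to 0.108), unprocessed pseudogenes (−0.209 to 0.0876), the weighted transcript length (−0.798 to 61.6 nt) and the weighted 3′ UTR length (−1.18 to 27.3 nt, both negative without ctrl-EV library 3). Of 582 alternative values for the 26 transcripts named by rule 580 kept their direction and side of the threshold and 0 turned. Pkm-205 passed with edgeR (adjusted p 0.00809) and Errfi1-202 without miR-183-5p-EV library 2 (log2 odds difference −7.16, limma adjusted p 0.0437). The 26 were chosen by their values in these same libraries, so a kept direction is largely built in. None was called in the main fit, so a kept side of the threshold means that it stayed uncalled.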
